A study of Mus musculus with 3 samples.

Results

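A total of 794 TBX5 binding peaks of the fetal mouse heart lay more than 50 kb from the gene start assigned to them and in chromatin that carried a mark of enhancers but not the mark of their activity. They were chosen from the authors' deposited peak table by its chromatin class (poised, non-promoter) and by the absolute distance it lists to a gene start, and they made up 6.38% of the 12436 peaks in that table. TBX5 was immunoprecipitated from chromatin of whole E14.5 hearts of CD-1 embryos, an outbred stock for which the labels name no genetic change or treatment, in 2 biological replicates, and 1 input sample of the same tissue served as control. The peaks were called on the pooled replicates. No value per replicate can therefore be had, and every interval of a fold or a share below covers counting error only.

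TBX5 is a T-box transcription factor that pattern formation of the forelimb and heart depends on, and that acts in the heart with partners such as GATA4 and NKX2-5 at enhancers of chamber and conduction genes. Monomethylation of histone H3 lysine 4 (H3K4me1) marks enhancers in general, acetylation of lysine 27 (H3K27ac) marks those that are active, and trimethylation of lysine 27 (H3K27me3) marks Polycomb repression. A poised enhancer, in a common usage that does not keep it apart from a primed enhancer, carries H3K4me1 without H3K27ac. TBX3 is a related T-box factor, a repressor known from the conduction system, which recognises much the same DNA motif.

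The class name was checked against the mark columns of the same table. All 1763 non-promoter peaks with H3K4me1 in at least 1 of its region files and with neither H3K27ac nor H3K27me3 were in the poised class, and 0 poised peaks had another pattern. The class thus required the absence of H3K27me3 as well, so the word poised here does not mean chromatin that carries both an active and a Polycomb mark. A call of absent means that no region of that mark was listed there, and the sources used here do not name the tissue and stage of the mark regions. The rule did not use the strength of the peaks, their TBX3 overlap, the marks outside the class definition or their distance to other peaks. It did use the distance to a gene start, so the values on gene bodies and gene density below are in part fixed by it, except beside the other sets beyond 50 kb, which share that limit. These are compared below with 969 poised peaks within 50 kb, 2108 active non-promoter peaks beyond 50 kb and 663 non-promoter peaks beyond 50 kb that had none of the marks that define the classes. Peaks of 1 pooled call are not replicates of a condition, so no test between these sets was made, and the shares and medians are descriptions of this list.

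Sequence could be read, at least in part, for 4 of the poised distant peaks. These overlapped a RefSeq window of 250 bases before to 50 bases after a gene start (build GRCm38.p6, the assembly that mm10 names). All 4 starts belonged to long non-coding RNA genes, which the distance in the deposited table had passed over. They are shown because they are the peaks of this set that lay at an annotated start after all, and because their letters can be set beside the T-box core GGTGTG, searched on both strands and written in capitals. The windows are printed along the strand of the gene.
Gm38851, chr6:87222881-87223180, plus strand: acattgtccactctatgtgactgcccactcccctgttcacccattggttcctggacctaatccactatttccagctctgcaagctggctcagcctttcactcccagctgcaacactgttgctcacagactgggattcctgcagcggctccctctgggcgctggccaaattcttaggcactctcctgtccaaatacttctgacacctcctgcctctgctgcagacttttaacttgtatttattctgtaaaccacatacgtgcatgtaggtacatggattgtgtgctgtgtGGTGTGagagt
Gm51456, chr7:125952658-125952957, plus strand: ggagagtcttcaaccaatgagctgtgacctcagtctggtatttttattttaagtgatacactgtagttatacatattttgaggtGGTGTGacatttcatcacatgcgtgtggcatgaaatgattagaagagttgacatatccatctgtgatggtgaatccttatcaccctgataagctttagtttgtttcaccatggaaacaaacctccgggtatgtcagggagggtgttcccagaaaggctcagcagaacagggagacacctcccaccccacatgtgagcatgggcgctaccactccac
Gm30275, chr14:54125684-54125983, minus strand: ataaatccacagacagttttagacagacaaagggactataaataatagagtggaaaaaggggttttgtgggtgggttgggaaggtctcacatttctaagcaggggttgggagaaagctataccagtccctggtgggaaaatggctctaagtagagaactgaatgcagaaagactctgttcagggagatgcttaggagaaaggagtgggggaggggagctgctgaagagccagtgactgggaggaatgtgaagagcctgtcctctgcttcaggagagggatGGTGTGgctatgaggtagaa
Gm31482, chr12:117465874-117466173, plus strand: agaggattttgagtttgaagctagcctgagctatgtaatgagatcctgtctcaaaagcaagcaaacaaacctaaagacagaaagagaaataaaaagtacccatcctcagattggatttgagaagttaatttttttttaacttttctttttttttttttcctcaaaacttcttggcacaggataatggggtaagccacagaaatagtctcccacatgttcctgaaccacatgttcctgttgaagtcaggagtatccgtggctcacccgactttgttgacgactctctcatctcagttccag

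The core stood in 3 of the 4 windows, once in each and inside the peak every time. Of all 32851 RefSeq start windows of the same length, 19.05% held it. The centre of the core lay 55 bases from the summit in the Gm30275 window, 67 bases in the Gm38851 window and 80 bases in the Gm51456 window. The longer T-box site AGGTGTGA, which contains the core, was in none of the 4 and in 1.27% of all windows. A match is a run of letters and not a measured site. Only the Gm51456 window held its whole peak. The other windows held 186 bp of the Gm31482 peak, 187 bp of the Gm30275 peak and 151 bp of the Gm38851 peak. In the Gm31482 window the summit was at base 275 of 300, and the peak ran on past the end. A motif missing from a window may therefore still stand in the unread part of the peak.

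These peaks at non-coding starts differed in strength. The peak at Gm31482 had a fold enrichment of 11.2 (7.73 to 15.8, from 31 fragments) and that at Gm30275 8.66 (5.77 to 12.5, from 26 fragments). The fold was 4.65 (2.68 to 7.59) at Gm51456 and 3.82 (2.38 to 5.86) at Gm38851. The Gm31482 and Gm38851 peaks overlapped TBX3 regions, and none of the 4 overlapped H3K4me3, the mark of active promoters. Fold enrichment is the authors' value for each peak, the fragments piled up at the summit in relation to those expected from the local background, and the interval is the exact 95% Poisson interval of the fragments with the background held fixed. Overlap with a start window was rare, at 0.533% of 751 poised distant peaks, 0.423% of 945 poised peaks within 50 kb, 0.958% of 1984 active and 0 of 638 unmarked distant peaks on the chromosomes with windows.

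Motifs of partner factors were searched in the same windows, on both strands. AGATAA, a form of the GATA motif, was in 0 of the 4 windows and in 11.2% of all start windows. Other forms were not counted. The form TGATAA can be read in the printed Gm51456 window, so the count does not show that GATA motifs were absent.

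The MEIS motif TGACAG was in 0 of the 4 and in 19.2% of all.

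The TEAD motif CATTCC was in the Gm30275 window and in 14.7% of all, and the MEF2 motif TAAAAATA was in the Gm51456 window and in 2.72% of all.

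The poised distant peaks were about as enriched as active peaks at like distance. Their median fold enrichment was 6.80 (exact 95% interval of the median over peaks 6.45 to 7.04, lowest 2.72, quartiles 5.25 and 9.67, highest 53.2). The median was 6.18 for poised peaks within 50 kb, 6.45 for active distant peaks (6.32 to 6.62), 6.44 for unmarked distant peaks and 5.67 for all peaks. The fold is set by the fragments and by the background together, and both medians were lower in the poised distant peaks than in active distant peaks or in all peaks. The median number of fragments at the summit was 20 in poised distant peaks, 19 in poised peaks within 50 kb, 22 in active distant peaks, 17 in unmarked distant peaks and 22 in all peaks. The median background was 2.12 fragments in poised distant peaks, 2.60 in active distant peaks, 1.61 in unmarked distant peaks and 2.83 in all peaks. The high median fold of the poised distant peaks, set beside all peaks, therefore went with a lower background and not with more fragments at the summit.

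**Figure D1:**
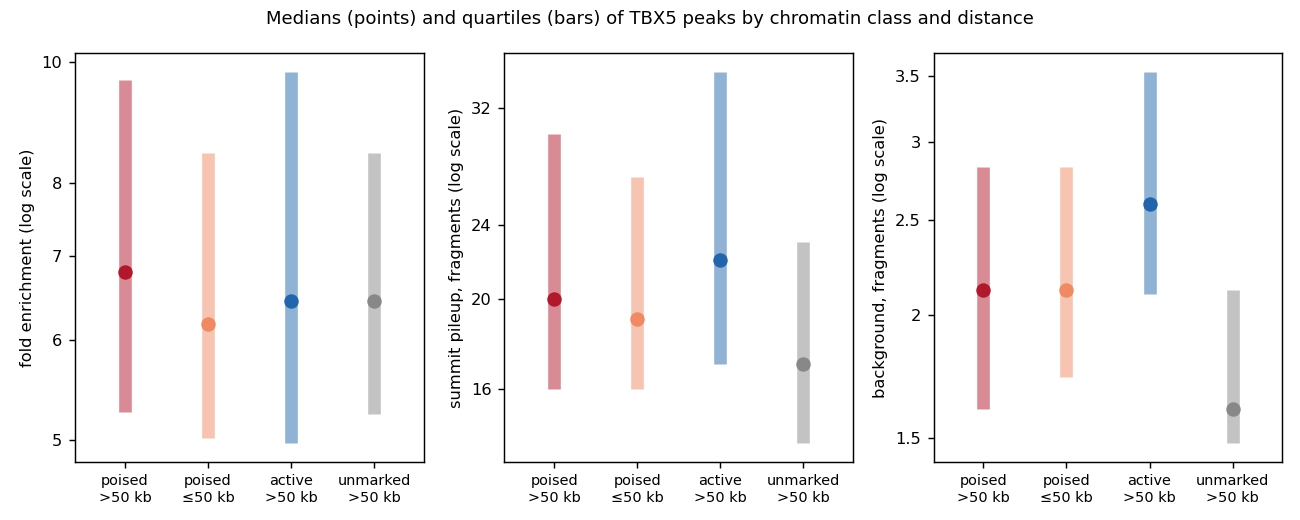
Fold enrichment, summit pileup in fragments and background in fragments, each on a log scale, for 794 poised peaks beyond 50 kb, 969 poised peaks within 50 kb, 2108 active and 663 unmarked non-promoter peaks beyond 50 kb; points are medians and bars run between the quartiles. The poised distant peaks have a median fold of 6.80 from 20 fragments over a background of 2.12, and the active distant peaks 6.45 from 22 fragments over 2.60.

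Strength varied widely within the set. Of the 794 peaks, 397 (50.0%) had −log10 q of at least 10, against 41.5% of all peaks. A fold of at least 20 was reached by 37 of them (4.66%), against 4.07% of all peaks, 2.68% of poised peaks within 50 kb and 7.21% of active distant peaks. Of these 37 peaks 15 lay inside a protein-coding gene body, 20 lay over 100 kb from the assigned start, 18 had H3K4me1 in both of its region files and 4 overlapped TBX3 regions. In the whole set of 794 these shares were 43.5%, 56.3%, 47.0% and 8.44%, in the same order. An active TBX5 summit stood within 10 kb of 2 of the 37, and of 99 of the 794 (12.5%). Among the 100 strongest peaks of the whole list, 6 were poised and distant. The counting error of a single peak is large at the low end: for 489 of the 794 the interval of the fold reached below 5. The median width was 246 bp, against 233 bp in poised peaks within 50 kb, 273 bp in active distant peaks and 251 bp in all peaks.

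Of the 12 strongest members 11 are given here, named by the nearest protein-coding gene, which gives their position, since a distant peak need not act on the gene closest to it. The highest, at chr19:14165703-14166186, had 53.2-fold enrichment (45.5 to 61.9) from 165 fragments and lay 246018 bp from Olfr1505, an olfactory receptor gene. Nearly as strong was a peak at chr4:102176053-102176460 in the body of Pde4b, which encodes a phosphodiesterase that degrades cyclic AMP, with 53.1-fold enrichment (44.8 to 62.5) from 144 fragments. Another peak, active and 19.3-fold, had its summit 1154 bp away from it. The peak at chr3:156947276-156947796 in the body of Negr1, a neuronal adhesion gene, had 45.0-fold enrichment (37.7 to 53.3).

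A pair of equally strong peaks followed. The peak in the body of Hdac9, a class IIa histone deacetylase that binds MEF2 factors, had 42.7-fold enrichment (34.99 to 51.6) at chr12:34170662-34171009. That in the body of Ube2e2, a ubiquitin-conjugating enzyme, had 42.7-fold enrichment (34.98 to 51.6) at chr14:18667681-18668146. Each came from 105 fragments over a background of 1.48, the lowest background in the list. Both stood alone, with the nearest other TBX5 summit 280660 bp from the Hdac9 peak and 312262 bp from the Ube2e2 peak.

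Outside gene bodies the next were a 39.5-fold peak (32.1 to 48.0) 89775 bp upstream of Kcnh7, a potassium channel gene, at chr2:63273690-63274283, and a 37.2-fold peak (30.8 to 44.6) 372167 bp upstream of Zfp608, a zinc finger gene, at chr18:55364508-55365032. The peak 9840 bp from Adtrp, at chr13:41753119-41753551, had 36.5-fold enrichment (30.2 to 43.9) and was the strongest member that overlapped a TBX3 region. Of the remaining ones, 31.7-fold (25.8 to 38.6) was found in the body of Trabd2b, which encodes a protease that inactivates Wnt proteins. Peaks 135264 bp from Bod1 and 102466 bp from Kctd1 had 30.01-fold (25.2 to 35.5) and 29.5-fold enrichment (24.2 to 35.6). The intervals of these 11 overlap between neighbours in the order, so that their ranks are not settled by the counts.

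**Figure D2:**
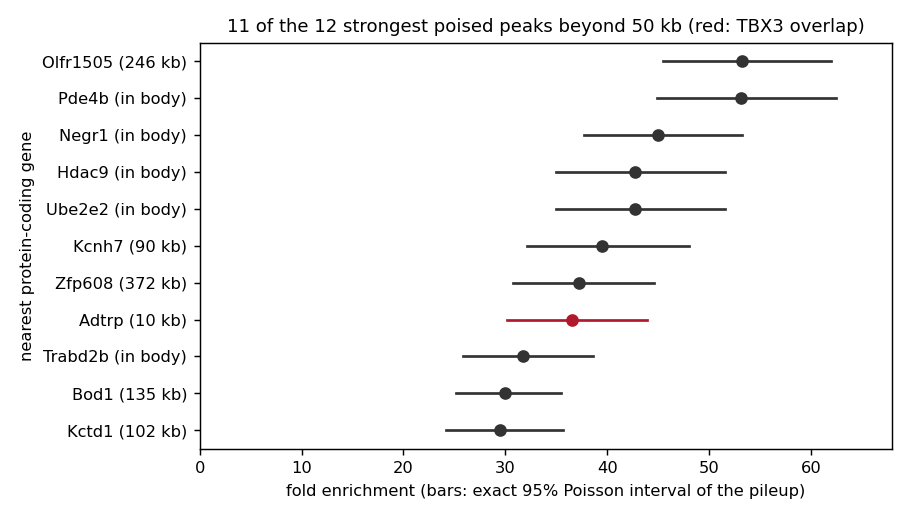
Fold enrichment on a linear axis of 11 of the 12 strongest poised peaks beyond 50 kb, labelled by the nearest protein-coding gene and the distance to its body; bars are exact 95% Poisson intervals of the pileup. Values run between 29.5 for the Kctd1 peak and 53.2 for the Olfr1505 peak, and the Adtrp peak alone among them overlaps a TBX3 region.

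TBX3 overlap was scarce in this set. Of the 794 peaks 67 (8.44%, exact binomial interval 6.60 to 10.6) overlapped TBX3 regions, against 11.3% of poised peaks within 50 kb, 21.0% of active distant peaks, 3.02% of unmarked distant peaks and 27.0% of all peaks. The binomial intervals treat peaks as independent, which neighbours are not. The sources used here do not name the tissue of the TBX3 regions either. At equal strength the order was the same: for folds of 4 to 6 the shares were 7.57% of 251 poised distant peaks, 21.8% of 726 active distant peaks and 2.45% of 245 unmarked distant peaks. For folds of 8 to 12 they were 9.64% of 166, 20.9% of 378 and 5.38% of 130 peaks in the same sets. The members with and without TBX3 overlap had like strength, with a median fold of 6.84 and 6.80.

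The share with TBX3 overlap was lower at greater distance. It was 13.0% of 347 poised peaks at 50 to 100 kb (45 peaks), 17 of 243 at 100 to 200 kb (4.13 to 10.96%) and 2.92% of 171 at 200 to 500 kb. Beyond 500 kb it was 0 of 33, for which the exact binomial interval allows a share of up to 10.6%. In active distant peaks the shares in the same ranges were 25.0%, 19.6%, 12.8% and 12.3%, and in unmarked ones 3.95%, 2.08%, 2.60% and 3.12%. Fold did not follow the same course. The median fold of the poised peaks was 6.44, 6.59, 7.29 and 8.60 in these ranges, with a median of 20, 20, 21 and 22 fragments and a background of 2.12, 2.12, 1.98 and 1.78.

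**Figure D3:**
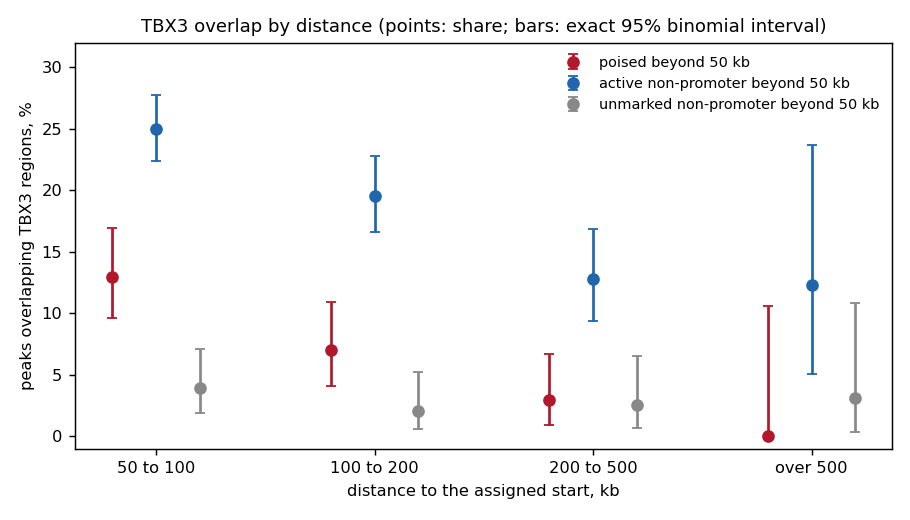
Share of peaks in percent that overlap TBX3 regions, by distance of the summit to the assigned start in kb, for poised, active and unmarked non-promoter peaks beyond 50 kb; bars are exact 95% binomial intervals. The share of poised peaks is 13.0% at 50 to 100 kb and 2.92% at 200 to 500 kb, and lies under that of active peaks in each range.

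Of the peaks that did overlap TBX3 regions, the 6 strongest began with that near Adtrp. A peak 253879 bp upstream of Kazn, at chr4:142493106-142493440, had 24.2-fold enrichment (18.5 to 31.1), and one in the body of Pde8a, a cyclic AMP phosphodiesterase gene, had 22.1-fold (16.7 to 28.8). Near Tut7, which encodes an enzyme that adds uridines to RNA, 20.1-fold enrichment (16.2 to 24.6) was measured 125766 bp away. The body of Exoc4, a subunit of the exocyst, held an 18.1-fold peak (13.3 to 24.2), and a 14.9-fold peak (10.6 to 20.5) lay 12304 bp from Atrnl1. Of these 6 only the Adtrp peak was also among the 12 strongest of the whole set.

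**Figure D4:**
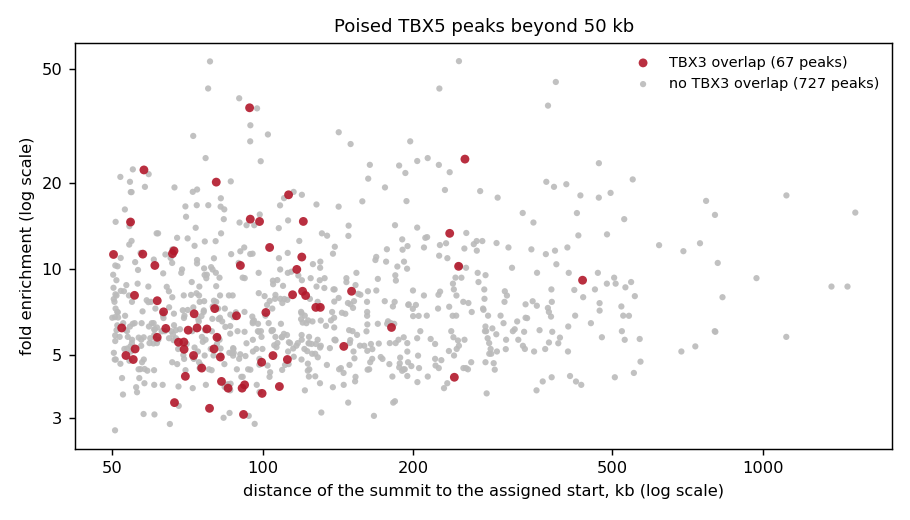
Fold enrichment against the distance of the summit to the assigned start in kb, both on log scales, for the 794 poised peaks beyond 50 kb, with the 67 that overlap TBX3 regions in red. Peaks above 20-fold stand both below and above 100 kb, and no peak beyond 500 kb overlaps a TBX3 region.

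Other histone marks were rare on these peaks. H3K9ac, another mark of active chromatin, overlapped 31 of them (3.90%). The share was 5.88% of poised peaks within 50 kb, 30.9% of active distant peaks, 0.603% of unmarked distant peaks and 46.0% of all peaks. H3K4me3 overlapped 26 poised distant peaks (3.27%), against 4.75% of poised peaks within 50 kb, 11.6% of active distant peaks, 1.51% of unmarked distant peaks and 31.8% of all peaks. All peaks include promoter peaks, which the class leaves out, so the contrast with all peaks is in part fixed by the rule. Both H3K9ac and H3K4me3 stood on 13 of the poised distant peaks. The strongest of those 13, at chr3:78594902-78595319 and 467363 bp from Rapgef2, had 20.5-fold enrichment (15.8 to 26.2). H3K9me3, a mark of heterochromatin, overlapped 3 peaks (0.378%). It was as rare in the list as a whole, on 30 of all 12436 peaks (0.241%). The 3 peaks lay in the body of Rora (27.3-fold, 21.9 to 33.6), near Abcc4 (14.1-fold, 9.92 to 19.4) and in the body of Ror2 (10.98-fold, 7.95 to 14.8). The Rora gene encodes an orphan nuclear receptor. These 3, like the one near Rapgef2, were singled out after their values were seen.

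H3K4me1 defines the class. It stood in both of its region files for 373 of the 794 peaks (47.0%), in the first alone for 301 and in the second alone for 120. Of poised peaks within 50 kb 56.7% were marked in both files, and of the 1993 active distant peaks with H3K4me1 76.0%. A peak enters the poised class if 1 file marks it. TBX3 overlap was 11.3% of those marked in both files, 5.32% of those marked in the first alone and 7.50% of those marked in the second alone, while the median folds were 6.66, 7.05 and 6.16.

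The peaks were then placed among genes. A summit more than 50 kb from a start can still lie inside a long gene, and 345 of the 794 (43.5%) lay in the body of a protein-coding gene, against 64.2% of poised peaks within 50 kb, 45.3% of active distant peaks, 33.6% of unmarked distant peaks and 58.8% of all peaks. Of those inside, 101 lay in genes whose body spans at least 500 kb. Another 67 lay in the body of a long non-coding RNA gene alone. These counts of 101 and 67 were not made for the other sets. In neither kind of body lay 382 (48.1%), against 28.6% of poised peaks within 50 kb, 43.6% of active distant peaks, 58.8% of unmarked distant peaks and 33.4% of all peaks. Of the 449 outside protein-coding bodies, 369 were over 50 kb from the nearest body and 21 were within 10 kb of one. The median fold was 6.54 inside and 6.85 outside protein-coding bodies. The authors' distance placed 315 upstream (39.7%) and 479 downstream of the assigned start, and 252 of the downstream ones were inside a protein-coding body. The upstream share was 41.6% of poised peaks within 50 kb, 39.9% of active distant peaks, 40.7% of unmarked distant peaks and 44.1% of all peaks.

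Their surroundings held few genes. The median number of protein-coding genes within 500 kb of the summit was 4 for poised distant peaks, 9 for poised peaks within 50 kb, 5 for active distant peaks, 3 for unmarked distant peaks and 9 for all peaks. No such gene lay within 500 kb of 35 poised distant peaks (4.41%), against 2.99% of active distant peaks, 9.50% of unmarked distant peaks and 1.33% of all peaks. These 35 had a median fold of 8.66 and 0 of them overlapped a TBX3 region. By chromosome, the set made up 10.1% of the peaks on chromosome 12, the highest share, and 3.29% of those on the X chromosome, the lowest.

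At the far end, the 3 peaks with the greatest assigned distance lay far from protein-coding genes. The first, at chr1:102687473-102687996, was 1532070 bp from its assigned start and 2080502 bp from Cdh20, the nearest protein-coding body, with 15.7-fold enrichment (11.2 to 21.4). A peak at chr14:91604691-91605011 lay 1477942 bp from its start, and 1408867 bp from the body of Pcdh9. One at chr7:94798203-94798441 lay 1372925 bp upstream of Tenm4. Both had 8.66-fold enrichment (5.77 to 12.5) from 26 fragments. Just beyond the 50 kb limit were peaks at 50041 bp (6.73-fold, in the body of Kif16b), 50251 bp (9.52-fold, near Usp47) and 50324 bp (8.57-fold, near Kctd12). Just within it were peaks at 49932 bp (12.5-fold, near Gm30500) and 49880 bp (8.34-fold, near Fgfr2). The folds of these few peaks overlapped across the limit, which does not describe the sets on either side of it. The median fold was 6.80 (6.45 to 7.04) for poised distant peaks. It was 6.18 (6.04 to 6.40) for poised peaks within 50 kb.

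The start behind the authors' distance was identified for 553 of the 794 peaks (69.7%), where its exact position was that of a RefSeq start. It belonged to a protein-coding gene in 381 of these, and the others began non-coding genes, microRNA genes among them. In 243 of the 553 the nearest protein-coding gene by body was a different gene from the one assigned. Where the assigned start is that of a non-coding gene this holds by construction. The count is therefore not a rate of disagreement between protein-coding genes. Genes are therefore named here by the nearest protein-coding body, which is a statement of position.

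Most members had no other TBX5 summit within 10 kb, but 52.8% had one within 50 kb. Another TBX5 summit stood within 10 kb of 175 of them (22.0%), against 19.7% of poised peaks within 50 kb, 32.9% of active distant peaks, 11.9% of unmarked distant peaks and 32.9% of all peaks. The nearest other summit lay a median of 45091 bp away, against 25805 bp for active distant peaks and 25066 bp for all peaks. It was active and non-promoter for 385 members (48.5%) and another poised distant peak for 167 (21.0%). Where it lay within 10 kb, 92 of the 175 neighbours were active and 57 were poised and distant. Of all 12436 peaks, 5921 were active and non-promoter with H3K4me1 and another 316 without it. Poised distant peaks made up 6.38% of the list. A large number of active neighbours is thus not particular to this set, and the class of the nearest summit was not counted for the other sets. An active summit stood within 50 kb of 288 members (36.3%). The share was 39.6% of poised peaks within 50 kb, 53.6% of active distant peaks, 22.2% of unmarked distant peaks and 47.0% of all peaks. No other summit lay within 100 kb of 266 members (33.5%), a share not counted for the other sets. The upper quartile of the distance to the nearest other summit was 134718 bp for members and 78295 bp for all peaks. It was 78109 bp for active distant peaks and 246628 bp for unmarked distant peaks, which were the more isolated.

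When members whose summits follow each other within 50 kb were joined, 658 stood alone, 61 formed pairs, 3 runs held 3 and 1 run held 5. The run of 5 lay in the body of Ror1, a receptor tyrosine kinase for WNT5A, between 100292757 and 100381059 on chromosome 4. Its folds were 10.2, 11.7, 6.31, 4.92 and 6.41 in order of position, and 0 of the 5 overlapped a TBX3 region. Another member with 5.27-fold enrichment (3.15 to 8.37) lay in the same body, among 8 active peaks, the strongest of which reached 28.2-fold (22.7 to 34.6).

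The runs of 3 were smaller. That nearest to Ndufa10, a gene of respiratory complex I, spanned 18261 bp, and its middle peak had 14.6-fold enrichment (10.9 to 19.3) and overlapped a TBX3 region. In the body of Epha4, an ephrin receptor gene, 3 peaks of 5.91-fold to 7.14-fold spanned 34009 bp. The run near Slc28a3, a nucleoside transporter gene, had folds of 4.84 to 5.08, and 2 active peaks stood between its members. Among the 61 pairs the one with the strongest peak was that upstream of Zfp608, where a 4.03-fold peak (2.18 to 6.95) stood 8947 bp from the 37.2-fold one.

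A few genes were nearest to many members. Of 605 protein-coding genes that were nearest to at least 1 member, 466 had 1, 106 had 2 and 33 had at least 3. Zfp608, Adgrl2 and Ror1 had 6 each, Epha4 and Celf2 had 5 each, and Macrod2 had the strongest peak among the genes with 4. Around Zfp608, with 25 peaks in all, the 6 poised distant peaks had folds of 9.90, 8.68, 12.7, 4.56, 4.03 and 37.2, and 14 other peaks were active and non-promoter. Adgrl2, an adhesion receptor of the latrophilin family, had members between 123174 and 855429 bp away, with folds of 3.97 to 12.1, and 7 active non-promoter peaks. Around Celf2, an RNA-binding protein gene, 3 of the 5 members were in the body and the folds ran between 6.44 and 8.46. All 4 members of Macrod2 lay in its body of 1997664 bp, the strongest at 24.4-fold (19.2 to 30.5), and where the assigned start could be named it was that of Flrt3, a gene inside this span. None of the members at these 6 genes overlapped a TBX3 region.

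**Figure D5:**
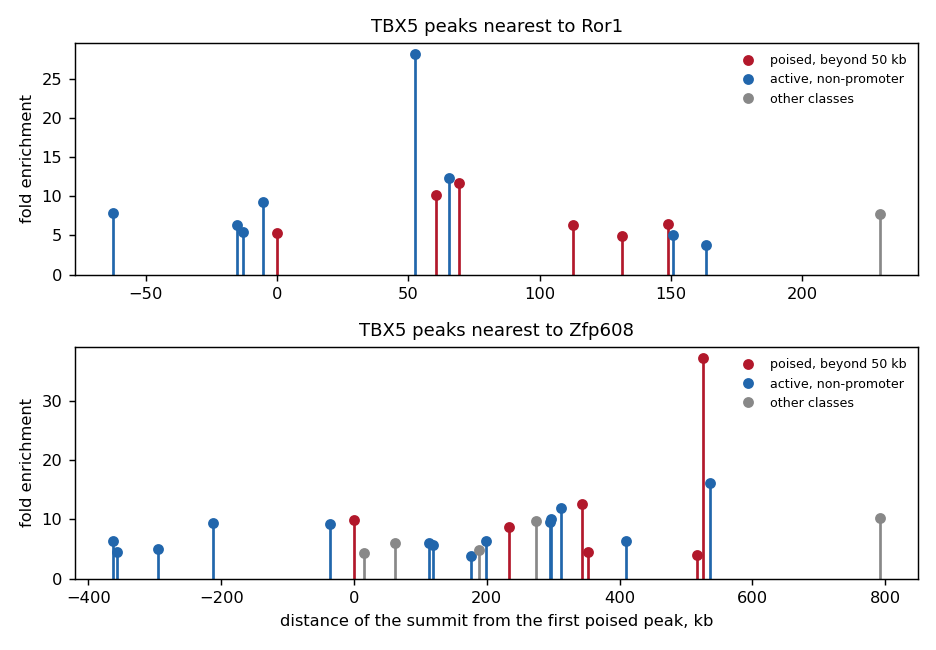
Fold enrichment of all TBX5 peaks nearest to Ror1 and to Zfp608, by the distance of each summit in kb from the first poised distant peak of that gene; red marks poised peaks beyond 50 kb, blue active non-promoter peaks and grey other classes. Poised and active peaks are mixed along both spans, and the strongest is active at Ror1 (28.2-fold) and poised at Zfp608 (37.2-fold).

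Gene groups were described by how many of their genes were nearest to at least 1 of the peaks, which 2.80% of all protein-coding genes were. Genes with much empty space around them are nearest to distant peaks more often, so the number of members per Mb of the space in which a listed gene is the nearest is given beside it, and that number was 0.305 over all genes. Of 38 cardiac transcription factor genes 10 (26.3%) were nearest to a member, with 0.759 members per Mb. Mef2c, a MADS-box factor of muscle, had a 16.1-fold peak (11.6 to 21.9) 53015 bp away. The peak nearest to Zfhx3 had 9.66-fold enrichment (6.27 to 14.3), and those of Irx3 and Meis1 reached 9.11-fold (6.02 to 13.3) each. The Meis1 peak, 297842 bp from that homeobox gene, overlapped a TBX3 region. For active distant peaks the same list had 18 of 38 genes and 3.21 peaks per Mb, against 0.811 over all genes.

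Signalling genes followed. BMP and TGF-beta genes were nearest to a member in 10 of 33 cases (30.3%, 1.18 members per Mb). Among them were the ligand genes Bmp5 (16.5-fold, 11.9 to 22.3), Bmp2 (9.08-fold, 6.85 to 11.8) and Bmp7 (6.30-fold, 3.92 to 9.66) and the activin receptor gene Acvr2a (5.48-fold, 3.27 to 8.70). The peak nearest to Bmp5 lay 44584 bp from it and was the only TBX5 peak nearest to that gene. Of 44 Wnt genes 4 were nearest to a member (9.09%), with 1.30 members per Mb from 9 members, 6 of them at Ror1. Ror2, its paralogue, had a 10.98-fold peak in its body, Fzd8, a Wnt receptor gene, a 4.44-fold peak (2.65 to 7.05) and Lef1, a transcription factor of the pathway, a 4.39-fold peak (2.38 to 7.57).

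Of 20 Notch genes 4 were nearest to a member (20%), with 1.57 members per Mb, the highest density among the 14 lists, from 5 members. Active distant peaks were also densest at Notch genes, with 4.09 per Mb against 0.811 over all genes. They numbered 2.89 per Mb at BMP and TGF-beta genes and 2.45 per Mb at Wnt genes. Maml2, a coactivator, had a 9.63-fold peak (6.82 to 13.2) in its body and Jag1, a ligand, an 8.86-fold peak (5.64 to 13.3) 508131 bp away. The receptor gene Notch2 held a 6.27-fold peak (4.07 to 9.28) and Maml3 a 4.61-fold peak (2.71 to 7.41). FGF genes numbered 2 of 33 (6.06%, 0.420 members per Mb), the ligand gene Fgf9 (7.58-fold, 4.65 to 11.7) and the factor gene Etv5 (6.54-fold, 4.28 to 9.60). Hedgehog genes numbered 2 of 18 (11.1%, 0.461 members per Mb), namely the transcription factors Gli2 (7.32-fold, 4.91 to 10.5, with TBX3 overlap) and Gli3 (7.05-fold, 4.49 to 10.6).

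Axon guidance and adhesion genes had the highest share, 12 of 36 (33.3%), but also the most space, with a median of 0.710 Mb a gene against 0.0400 Mb over all genes, and 0.574 members per Mb. The strongest were Slit2, a secreted guidance ligand (13.3-fold, 9.22 to 18.6), Epha4 (10.2-fold, 7.29 to 13.9), Sema6d, a semaphorin (9.26-fold, 5.95 to 13.8), and Plxna4, a semaphorin receptor (7.46-fold, 4.89 to 10.96).

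Sarcomere genes were the nearest about as often as all genes. Of 32 such genes 1 was (3.12%, against 2.80% of all genes, and 0.293 members per Mb, against 0.305), Myom2 of the M-band, with a 3.92-fold peak (2.26 to 6.40) 18818 bp away that overlapped a TBX3 region. Of 30 genes for ion channels and conduction 3 were (10%, with 0.267 members per Mb). A 20.9-fold peak (15.7 to 27.4) lay in the body of Kcnd2, a channel of the transient outward potassium current, and peaks of 6.59-fold (3.99 to 10.3) and 6.05-fold (3.81 to 9.18) lay in the calcium channel genes Cacna1d and Cacna1c. These lists were nearest to some TBX5 peak of any class in 27 of 32 and 26 of 30 cases, against 27.7% of all genes. Sarcomere genes also have little space, with a median of 0.0400 Mb, equal to that of all genes.

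The other lists gave small counts, to be read against 2.80% of all genes and 0.305 members per Mb. Endothelial and endocardial genes numbered 0 of 24 and hepatocyte genes 0 of 24, counts too small to set apart from the share of all genes. Epicardial, fibroblast and smooth muscle genes numbered 1 of 24 (4.17%, 0.204 members per Mb), the zinc finger gene Bnc2 (5.77-fold, 3.49 to 9.05). Limb genes numbered 3 of 28 (10.7%, 0.739 members per Mb), led by the homeobox gene Msx2 (11.2-fold, 8.17 to 15.1), with Irx3 and Gli3 shared with the lists above. Of 26 neuronal genes 2 were (7.69%, 0.122 members per Mb), the synaptic vesicle gene Syt1 (24.4-fold, 19.2 to 30.5, in its body) and the splicing factor gene Rbfox1 (5.77-fold, 3.49 to 9.05). Counts of this size are small, and lists share members.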

How the data were processed

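TBX5 ChIP-seq was analysed from hearts of CD-1 embryos at E14.5, with 2 TBX5 samples and 1 input. Bowtie2, SAMtools, MACS2 and ChIPseeker were used on mm10, per the submitters' processing notes, with no versions or settings named in the sources used here. Peaks were called on the pooled samples, per the file headers and peak names. The deposited fold (a ratio over local background), −log10 p, −log10 q and score of each peak are the authors' values. The sources used here name no read depth.

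Fragments at each summit and its background were solved from the deposited fold, (fragments + 1)/(background + 1), and −log10 p, taken as a Poisson probability of more fragments. A whole number of fragments matched within 0.0005 for all 12436 peaks, and the solver was tested on simulated data. PCR duplicates are not told apart from separate molecules in such counts, so intervals at 95% cover counting error only.

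Gene bodies came from the RefSeq table of GRCm38.p6 (21631 protein-coding genes, autosomes and X), the nearest by distance of summit to body. Space per gene was counted on a grid of 10 kb. All entries of the 14 gene lists matched. Positions are 1-based on mm10.

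The members, lists and comparison sets were chosen with earlier results of these data known. Named were the 12 strongest members, the 6 strongest with TBX3 overlap, the 3 farthest and the 3 nearest to the limit, the 5 largest runs (ties by strongest peak), the 6 genes with most members and up to 4 genes a list, by fold. Of these, 1 of the strongest members and 1 peak next to the limit are not reported here. Motif counts over all members were planned but need the genome, which was not used here, and start windows on chromosome 18, where 43 members lie, were not used. Tools were scipy 1.17.1 (intervals), matplotlib 3.10.9, pandas 2.3.3, numpy 2.4.6 and Python 3.11.15.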

Additional observations from a re-analysis of the deposited data

How the results depend on the processing

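The number of members was 397 with −log10 q of at least 10, 447 beyond 100 kb and 373 with H3K4me1 in both files, against 794. It was 687 without summits within 50 kb of another protein-coding body and 635 with a fold of at least 5. The median fold was 9.67 and 7.65 with the minimum of −log10 q and of fold, which remove weak peaks by construction, against 6.80. TBX3 overlap was 4.92% beyond 100 kb and 11.3% with H3K4me1 in both files, against 8.44%. The share inside gene bodies was 34.9% beyond 100 kb, against 43.5%. The share with another summit nearby was 25.2% with H3K4me1 in both files, and 52.8% and 2.52% in windows of 50 kb and 1 kb, against 22.0%. For the shifts with distance and with H3K4me1 files the cause was not tested. Each of these measures under any remaining setting moved by less than its counting interval, or less than 1.5 times for the number of members. The T-box core count over all members was not run, with either window or motif, because it needs the genome. No paired analysis was possible because the peaks come from 1 pooled call, and for the same reason no replicate could be left out. Peaks under the authors' threshold were not detectable at this depth.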
